A study of Mus musculus with 6 samples.

Results

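The genes described here are 33 mouse genes of nuclear factor kappa B (NF-kB) signalling: inducible targets, cytokines and chemokines, and the receptors, adaptors and kinases that act upstream. They were chosen by symbol, as rows of the deposited expression table whose gene symbol equals a listed name. The list was drawn up with earlier results of these data known. Of the 33 symbols, 31 matched a row among the 19086 genes of the table. Cd83 and Il1b matched none and were not analysed here. All 31 had a mean of at least 1 normalized count over the 6 libraries, which was the filter for testing.

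NF-kB dimers are held in the cytoplasm by inhibitor proteins. Toll-like receptors, which sense microbial products, signal through the adaptor MyD88 and the ubiquitin ligase TRAF6, and TNF receptors signal through TRAF2 and its partners. Both routes reach the IkB kinase (IKK) complex, whose catalytic subunits phosphorylate the inhibitors and release NF-kB to the nucleus. There it drives cytokines, chemokines, adhesion molecules and also brakes on its own activity. In bone marrow, inflammatory signals of this kind are known to push haematopoietic stem cells (HSCs) out of quiescence, and mature myeloid cells are a major source of the cytokines.

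RNA sequencing was carried out on HSCs, gated as CD150+CD48- within the LSK fraction of bone marrow (negative for lineage markers, positive for Sca-1 and Kit), in 3 Zfp521-CKO-labelled libraries and 3 labelled Zfp521fl/fl. Zfp521fl/fl carries the floxed allele and serves as the control, and Zfp521-CKO donors are labelled as lacking Zfp521, a zinc finger gene. In both groups, C57BL/6 marrow of CD45.2 donors had been transplanted into lethally irradiated CD45.1 recipients, and cells were sorted 2 months later. The Cre driver, the deleted exons, the ages and whether cells of several recipients were pooled are not stated in these labels. The comparison asks which genes differ between HSCs of the 2 genotypes, and since no label ties a library to its own animal, p-values reflect library spread that may be technical.

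The libraries differed in ways that touch every result below. Depth was 56237262, 30698602 and 3137596 reads in the Zfp521-CKO-labelled replicates 1, 2 and 3, against 7396932 to 10689480 reads in the Zfp521fl/fl libraries. Zfp521 (ENSMUSG00000024420), the targeted gene, was at log2(normalized count + 1) values of 7.94, 5.33 and 0 in the Zfp521-CKO-labelled libraries and at 0, 2.74 and 0 in Zfp521fl/fl (two-sided exact permutation p = 0.4, n = 3 each, where 0.1 is the smallest p possible). The reads of the targeted gene therefore do not follow the labels, and every direction is that of libraries as labelled. Whether the deletion took place cannot be told from reads of the whole gene, since the deleted exons are not stated. Of 12 HSC markers, 12, 11 and 8 had reads in the Zfp521-CKO-labelled libraries and 6 in each Zfp521fl/fl library, counts that also depend on depth. Of all genes of the table, 87.4%, 74.9% and 33.8% had reads in the Zfp521-CKO-labelled libraries and 52.9%, 32.1% and 39.2% in Zfp521fl/fl. Procr, Slamf1, Fgd5 and Tek had no reads in any Zfp521fl/fl library, although Slamf1 encodes the sorting marker CD150. Reads in Zfp521-CKO-labelled libraries alone were also found for 28.5% of all genes tested. The 12 HSC markers took 0.14%, 0.152% and 0.0242% of reads in the Zfp521-CKO-labelled replicates 1, 2 and 3. In Zfp521fl/fl replicates 1, 2 and 3 they took 0.00757%, 0.143% and 0.0123%. The 15 granulocyte markers took 0.036%, 1.45% and 12.8% of reads in the Zfp521-CKO-labelled libraries and 12.5% to 15.1% in Zfp521fl/fl, and the 15 monocyte and macrophage markers took 0.12%, 0.244% and 0.938% against 0.372% to 0.885%. The part of these marker shares in the values below was not tested, and in bulk RNA fewer cells of a type and less RNA per cell cannot be told apart.

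None of the listed genes passed the test between the 2 genotypes with all 6 libraries. With limma, 0 of the 31 passed an adjusted p of 0.05, as did 0 of 16436 genes tested (0%), and 0 of the 31 passed with limma on precision-weighted reads (voom). At an unadjusted p under 0.05 there were 2 of the 31, Ier3 and Myd88, both higher in the Zfp521-CKO-labelled libraries, against 5.09% of all genes tested in that direction, and 0 were lower, against 0.493%. The median difference over the 31 genes was 1.66 log2 units, higher in the Zfp521-CKO-labelled libraries, beside 1.63 over all genes tested and 0.03 over the 3140 genes with reads in all 6 libraries. The difference was above 0 for 23 of the 31 (74.2%) and for 73.6% of all genes tested, whereas with quantile normalization it was above 0 for 12 of the 31 (38.7%) and 49.2% of all genes, and the median of the 31 was -0.35 beside -0.02 over all genes. The median gene thus lay at 1.63 where genes without reads in some libraries were counted in, and near 0 among genes read in every library.

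Most of the listed genes were present in some libraries and without any read in others of the same group. Reads were found for 29, 24 and 7 of the 31 genes in the Zfp521-CKO-labelled replicates 1, 2 and 3, and for 21, 9 and 13 in Zfp521fl/fl replicates 1, 2 and 3. As shares, the Zfp521-CKO-labelled libraries held 93.5%, 77.4% and 22.6% of the listed genes, beside 87.4%, 74.9% and 33.8% of all genes of the table. The Zfp521fl/fl libraries held 67.7%, 29.0% and 41.9% of the listed genes, beside 52.9%, 32.1% and 39.2% of all genes. With reads thinned to the total of the shallowest library, which evens out counting error but not the number of molecules captured, the expected number with reads was 28.1, 23.6 and 7 in the Zfp521-CKO-labelled libraries and 19.1, 8.56 and 12.4 in Zfp521fl/fl. These are 90.7%, 76.1% and 22.6% of the list in the Zfp521-CKO-labelled libraries, beside 76.5%, 66.4% and 33.8% of all genes. In Zfp521fl/fl they are 61.8%, 27.6% and 40.1%, beside 48.0%, 29.4% and 36.8%. The shares of all genes, as deposited and thinned, include genes below the filter for testing, which the 31 listed genes all passed. Of the 16436 genes tested, 39.0% had reads in the Zfp521-CKO-labelled replicate 3 as deposited, so these shares are not like for like. Values spread over more than 5 log2 units within the Zfp521-CKO group for 23 of the 31 genes (74.2%), beside 54.7% of all genes tested, and within Zfp521fl/fl for 19 (61.3%), beside 38.3%. A single gene, Ripk2, had reads in all 6 libraries (3.23%, beside 19.1% of all genes tested).

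**Figure D1:**
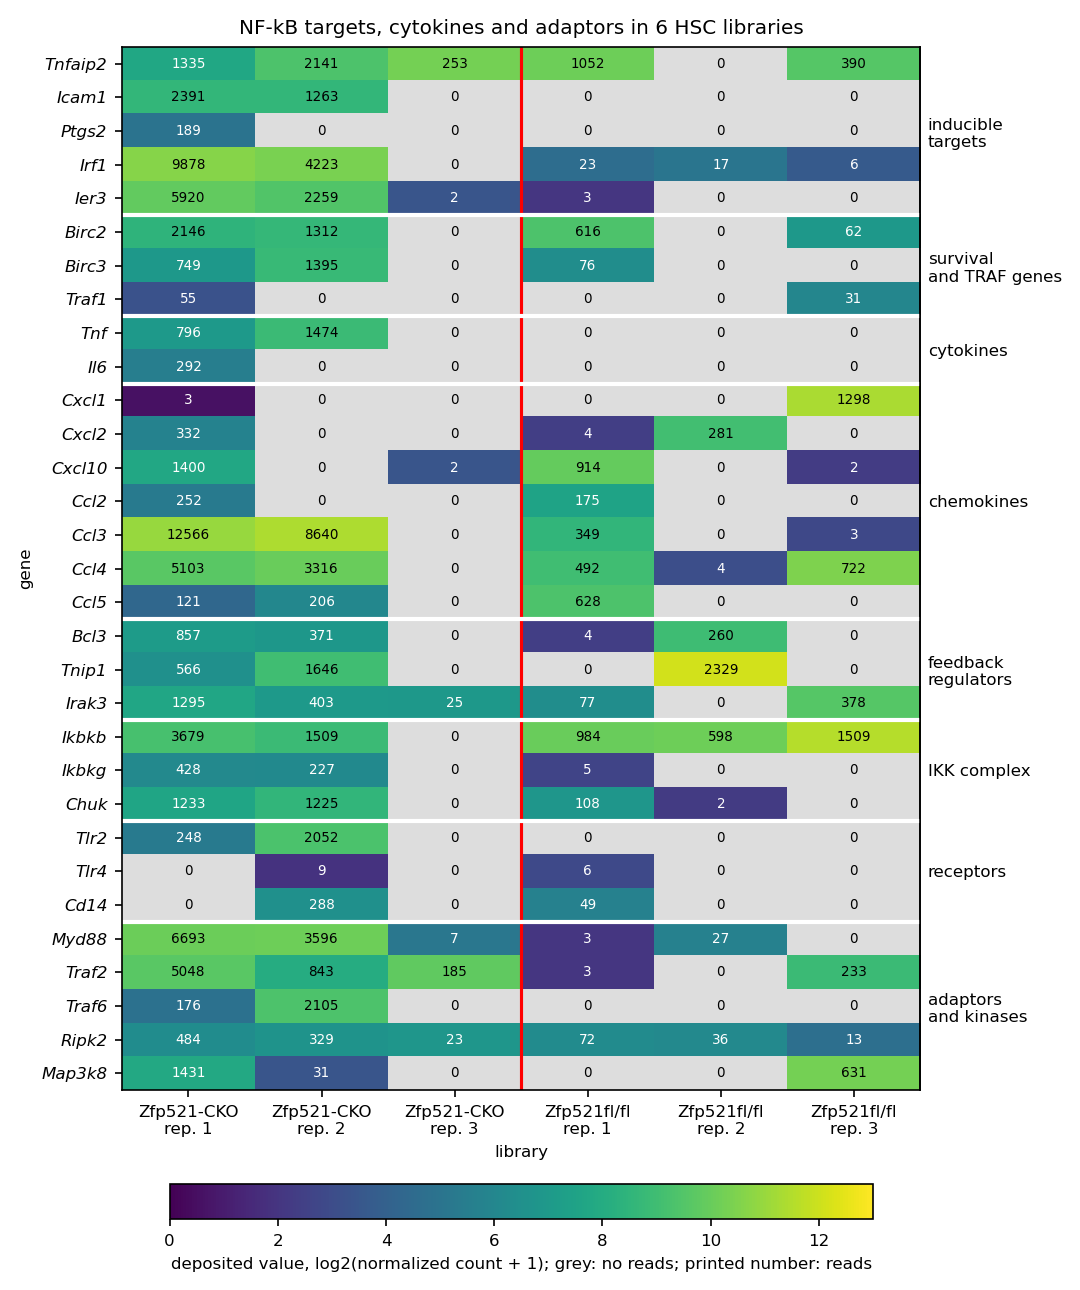
Deposited log2(normalized count + 1) of the 31 genes (rows, by role) in the 6 libraries (columns, Zfp521-CKO left of the red line), with the recovered number of reads printed in each cell and grey for 0 reads. Replicates 1 and 2 labelled Zfp521-CKO held reads of 29 and 24 genes, and replicate 3 of 7.

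**Figure D2:**
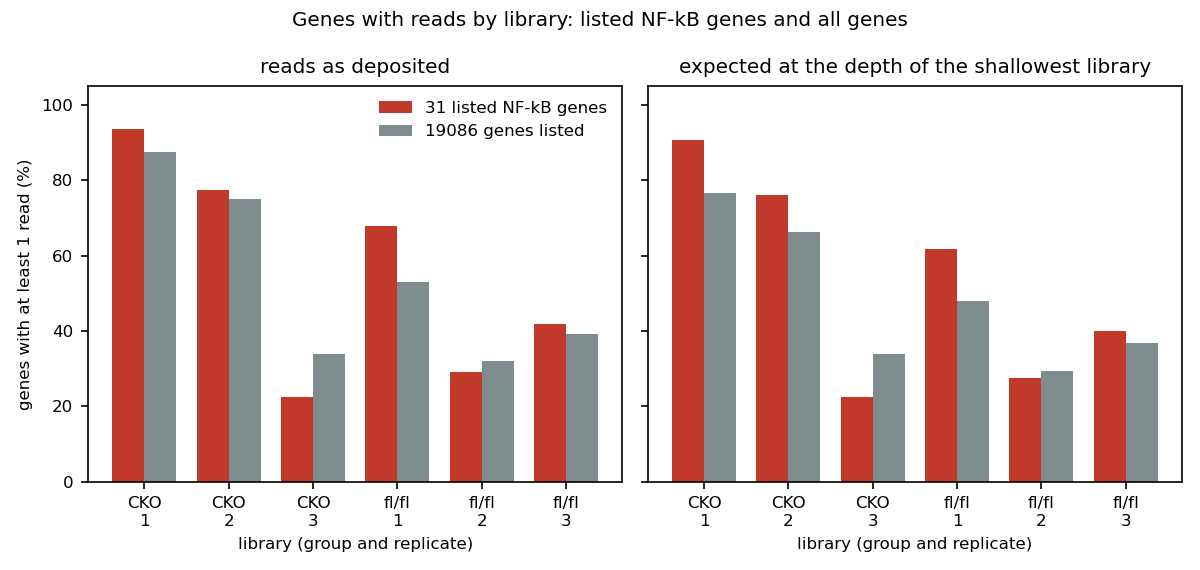
Share of genes with at least 1 read (y axis, %) in each library (x axis), for the 31 listed NF-kB genes (red) and all 19086 genes (grey), as deposited (left) and in expectation at the depth of the shallowest library (right). The grey bars include genes below the filter for testing, which all 31 listed genes passed. With reads thinned to that total the values are 28.1, 23.6 and 7 listed genes expected in the Zfp521-CKO-labelled libraries and 19.1, 8.56 and 12.4 in Zfp521fl/fl.

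Groups of libraries did not overlap for 3 of the 31 genes. Ier3 and Ripk2 were higher in every Zfp521-CKO-labelled library (2 of 31, 6.45%, beside 7.17% of all genes tested) and Ikbkb was lower in every one (1 of 31, 3.23%, beside 2.05%). Both shares are close to those of the whole table.

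Among the receptors, Tlr2, which recognises bacterial lipoproteins, was at 5.35, 9.32 and 0 in the Zfp521-CKO-labelled libraries (248, 2052 and 0 reads) and had no reads in Zfp521fl/fl. The groups overlapped at 0, and the difference of 4.89 ± 2.59 log2 units (each difference is given ± SE) did not pass (limma adjusted p = 0.61). Tlr4, the lipopolysaccharide receptor, had reads only in the Zfp521-CKO-labelled replicate 2 (9 reads) and in Zfp521fl/fl replicate 1 (6 reads), at most 0.561 reads per 1000000. Cd14, the co-receptor that hands lipopolysaccharide to TLR4, had reads in the same pair of libraries, 288 in the one labelled Zfp521-CKO and 49 in Zfp521fl/fl. No receptor of the list had a read in the Zfp521-CKO-labelled replicate 3 or in Zfp521fl/fl replicates 2 and 3.

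Of the adaptors and kinases, Myd88, Traf2 and Traf6 had differences above 1.63, the median of all genes tested. Myd88, the adaptor shared by most Toll-like receptors and the interleukin-1 receptor, was at 10.07, 10.13 and 5.13 in the Zfp521-CKO-labelled libraries and at 2.07, 5.71 and 0 in Zfp521fl/fl. The third Zfp521-CKO-labelled library, with 7 reads, lay below Zfp521fl/fl replicate 2, with 27 reads, so the groups overlapped. The difference was 5.85 ± 2.65 (limma adjusted p = 0.61). Traf2, the adaptor of TNF receptors, was at 9.67, 8.04 and 9.81 in the Zfp521-CKO-labelled libraries and at 2.07, 0 and 8.86 in Zfp521fl/fl. Its overlap came from Zfp521fl/fl replicate 3, with 233 reads, which stood above the Zfp521-CKO-labelled replicate 2 on this scale, and the difference was 5.53 ± 2.65 (limma adjusted p = 0.61). Traf6 had 176, 2105 and 0 reads in the Zfp521-CKO-labelled libraries and none in Zfp521fl/fl, the same presence and absence as Tlr2, Icam1 and Tnf. This pattern was found for 4 of the 31 genes (12.9%), beside 12.2% of all genes tested.

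Ripk2, the kinase that carries signals from the NOD receptors of bacterial cell wall fragments, was the most evenly measured gene of the list. It was at 6.30, 6.69 and 6.82 in the Zfp521-CKO-labelled libraries and at 6.27, 6.11 and 4.74 in Zfp521fl/fl. All 3 Zfp521-CKO-labelled libraries lay above all 3 Zfp521fl/fl libraries, by 0.03 log2 units at the closest. Per 1000000 reads it had 8.61 (exact 95% Poisson interval 7.86 to 9.41), 10.7 (9.59 to 11.9) and 7.33 (4.65 to 11.0) in the Zfp521-CKO-labelled libraries. In Zfp521fl/fl it had 6.74 (5.27 to 8.48), 4.87 (3.41 to 6.74) and 1.74 (0.927 to 2.98). These intervals cover counting error only, and several of them overlap between the groups. The difference of 0.89 ± 2.16 log2 units lay between the median of all genes tested, 1.63, and that of the genes with reads in all 6 libraries like Ripk2, 0.03. It did not pass (limma adjusted p = 0.88) and was -2.10 with quantile normalization. Map3k8, the kinase Tpl2 that links these receptors to the ERK pathway, had 1431, 31 and 0 reads in the Zfp521-CKO-labelled libraries and 0, 0 and 631 in Zfp521fl/fl.

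Of the IKK complex, Ikbkb, which encodes the catalytic subunit IKKbeta, had reads in 5 libraries, and the other subunits in fewer. Ikbkb was at 9.21, 8.88 and 0 in the Zfp521-CKO-labelled libraries and at 10.03, 10.15 and 11.55 in Zfp521fl/fl. Every Zfp521-CKO-labelled library lay below every Zfp521fl/fl library, and the lowest of them held no read at all. Per 1000000 reads it had 65.4 (63.3 to 67.6) and 49.2 (46.7 to 51.7) in the Zfp521-CKO-labelled replicates 1 and 2, while the interval of the 0 reads of replicate 3 reached 1.18. In Zfp521fl/fl it had 92.1 (86.4 to 98.0), 80.8 (74.5 to 87.6) and 202 (192 to 213). The difference was -4.55 ± 2.45 log2 units (limma adjusted p = 0.61), and -1.53 ± 0.84 without the Zfp521-CKO-labelled replicate 3 (limma adjusted p = 0.40). The other IKK subunits had positive differences. Ikbkg, the regulatory subunit NEMO, had 428, 227 and 0 reads in the Zfp521-CKO-labelled libraries and 5, 0 and 0 in Zfp521fl/fl. Chuk, the catalytic subunit IKKalpha, had 1233, 1225 and 0 reads in the Zfp521-CKO-labelled libraries and 108, 2 and 0 in Zfp521fl/fl. The differences were 3.21 ± 2.43 for Ikbkg and 2.37 ± 3.10 for Chuk, and with quantile normalization 0.26 and -0.29. No subunit of the complex had a read in the Zfp521-CKO-labelled replicate 3.

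Among inducible targets, Ier3, an early response gene that modulates cell survival, had the smallest unadjusted p of the list. It was at 9.90, 9.46 and 3.42 in the Zfp521-CKO-labelled libraries (5920, 2259 and 2 reads) and at 2.07, 0 and 0 in Zfp521fl/fl (3, 0 and 0 reads). The groups did not overlap, but the third Zfp521-CKO-labelled library stood above Zfp521fl/fl replicate 1 with fewer reads, 2 against 3, because 1 read is worth 4.86 normalized counts in the shallowest library and 1.06 in the other. The difference was 6.90 ± 2.69 log2 units (limma unadjusted p = 0.026, adjusted p = 0.61). Icam1, the adhesion molecule that binds leukocyte integrins, was at 8.59, 8.62 and 0 in the Zfp521-CKO-labelled libraries (2391, 1263 and 0 reads) and had no reads in Zfp521fl/fl. Replicates 1 and 2 lay within 0.03 log2 units of each other and replicate 3 was at the level of Zfp521fl/fl, with a difference of 5.74 ± 2.76 (limma adjusted p = 0.61).

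Irf1, a transcription factor of interferon responses and itself a target, was at 10.63, 10.36 and 0 in the Zfp521-CKO-labelled libraries and at 4.67, 5.05 and 3.69 in Zfp521fl/fl. Here the Zfp521fl/fl libraries lay between the first pair of Zfp521-CKO-labelled libraries and the third, so the overlap came from 1 library. Tnfaip2, a target first found in cells treated with TNF, was at 7.75, 9.38 and 10.27 in the Zfp521-CKO-labelled libraries and at 10.13, 0 and 9.60 in Zfp521fl/fl. It was the target with the highest count in the Zfp521-CKO-labelled replicate 3 (253 reads), its groups overlapped, and its difference of 2.56 ± 2.67 became -0.73 without Zfp521fl/fl replicate 2, which held no read. Ptgs2, which encodes the prostaglandin synthase COX-2, had 189 reads in the Zfp521-CKO-labelled replicate 1 and none elsewhere.

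None of the survival and TRAF genes passed the test. Birc2, which encodes the ubiquitin ligase cIAP1, was at 8.43, 8.68 and 0 in the Zfp521-CKO-labelled libraries and at 9.36, 0 and 6.95 in Zfp521fl/fl. Both groups held 1 library without reads, and the difference was 0.27 ± 3.28 (limma adjusted p = 0.98). It turned to -1.10 or -1.22 without the Zfp521-CKO-labelled replicate 1 or 2, to -2.45 without Zfp521fl/fl replicate 2 and to -1.01 with quantile normalization. Its relative Birc3, which encodes cIAP2, had 749, 1395 and 0 reads in the Zfp521-CKO-labelled libraries and 76, 0 and 0 in Zfp521fl/fl. Traf1, an inducible partner of TRAF2, had 55 reads in the Zfp521-CKO-labelled replicate 1 and 31 in Zfp521fl/fl replicate 3, and none elsewhere.

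The cytokines were read only in Zfp521-CKO-labelled libraries. Tnf was at 7.01, 8.85 and 0 (796, 1474 and 0 reads) in the Zfp521-CKO-labelled libraries and had no reads in Zfp521fl/fl, where 0 reads allow at most 0.281 to 0.406 reads per 1000000. Replicates 1 and 2 lay apart from all other libraries, which were all at 0, and the difference was 5.29 ± 2.64 (limma adjusted p = 0.61). Il6 had 292 reads in the Zfp521-CKO-labelled replicate 1 and none elsewhere. Reads in at least 1 Zfp521-CKO-labelled library and in no Zfp521fl/fl library were found for 6 of the 31 genes (19.4%: Icam1, Ptgs2, Tnf, Il6, Tlr2 and Traf6), beside 28.5% of all genes tested, so this pattern was not more frequent in the list than in the table. The reverse, reads in Zfp521fl/fl alone, was found for 0 of the 31 and for 3.07% of all genes tested.

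**Figure D3:**
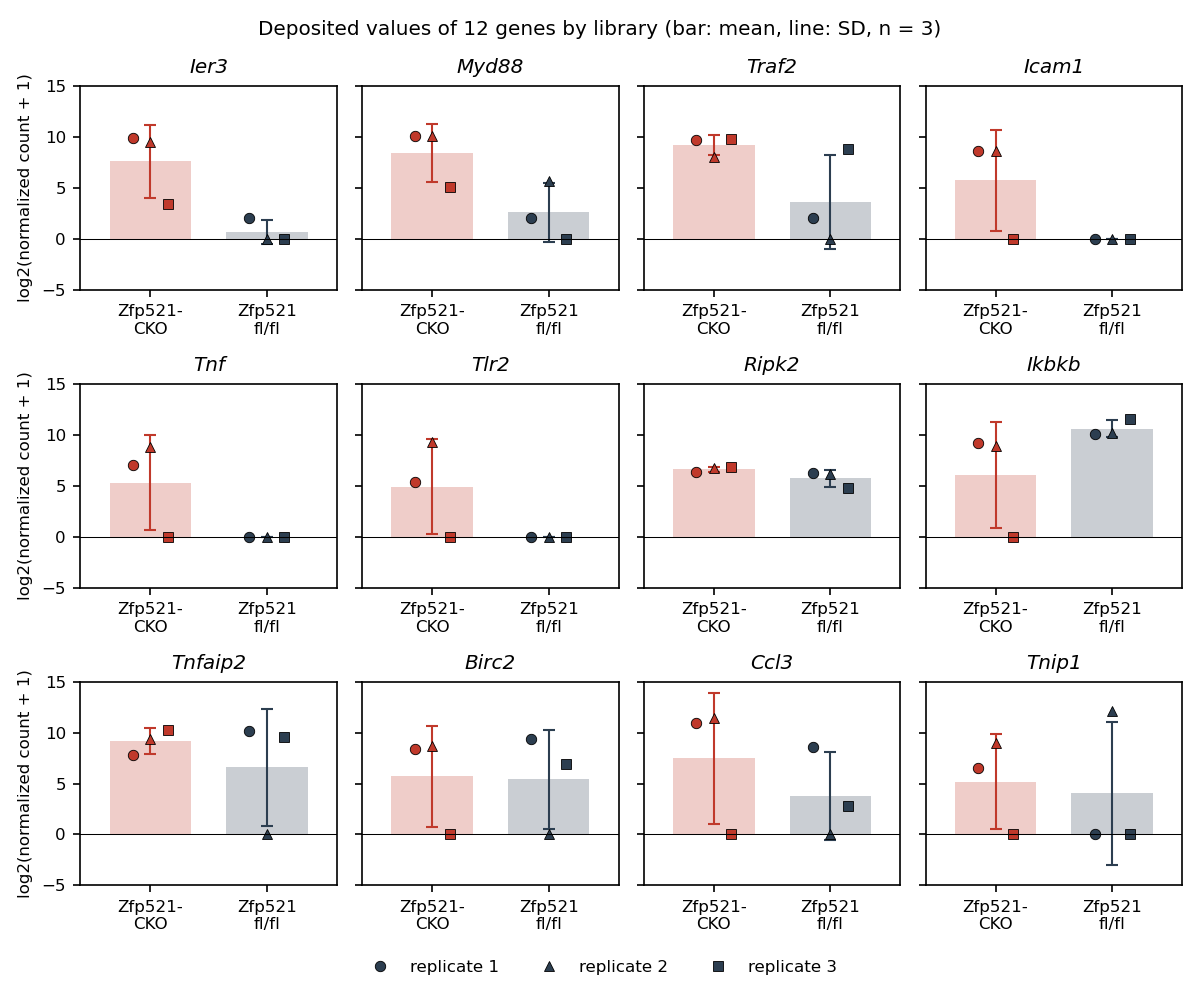
Deposited log2(normalized count + 1) (y axis) of 12 genes in the Zfp521-CKO-labelled libraries (red, left) and Zfp521fl/fl (dark, right), with a symbol for each replicate, bars for the mean and lines for the SD (n = 3 each). Ripk2 had reads in every library, whereas Icam1, Tnf and Tlr2 were at 0 in all Zfp521fl/fl libraries and in the Zfp521-CKO-labelled replicate 3.

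The chemokines attract neutrophils (Cxcl1 and Cxcl2), T cells (Cxcl10) and monocytes and other leukocytes (Ccl2 to Ccl5), and several are textbook NF-kB targets. RefSeq promoters, from 250 bases before to 50 bases after the annotated start, were at hand for 23 of the 31 genes (build GRCm38.p6, not the build of the deposited table). The NF-kB motif (GGG, any 2 bases, TTTCC) was searched on both strands. It was found for 4 of the 23 genes (17.4%), Cxcl1, Cxcl2, Il6 and Traf2, and for 512 of all 27025 genes with a promoter (1.895%). A match describes letters and not a bound site. The promoters of Cxcl1 (chr5:90890995-90891294, plus strand) and Cxcl2 (chr5:90903649-90903948, plus strand) are shown because each holds a pair of matches, in capitals, while most of their Zfp521fl/fl reads came from different libraries. The matched stretches of Il6 and Traf2 follow, with up to 10 bases on each side.
Cxcl1: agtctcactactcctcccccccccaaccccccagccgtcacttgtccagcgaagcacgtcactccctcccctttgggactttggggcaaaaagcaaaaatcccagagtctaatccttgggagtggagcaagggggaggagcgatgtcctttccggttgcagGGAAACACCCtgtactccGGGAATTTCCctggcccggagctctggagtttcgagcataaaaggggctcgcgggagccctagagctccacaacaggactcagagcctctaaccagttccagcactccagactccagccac
Cxcl2: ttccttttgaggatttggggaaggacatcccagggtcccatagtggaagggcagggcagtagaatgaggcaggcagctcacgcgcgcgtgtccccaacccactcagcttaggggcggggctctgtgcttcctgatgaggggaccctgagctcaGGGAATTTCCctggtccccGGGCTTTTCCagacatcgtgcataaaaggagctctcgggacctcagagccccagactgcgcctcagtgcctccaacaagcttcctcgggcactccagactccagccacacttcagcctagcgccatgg
Il6: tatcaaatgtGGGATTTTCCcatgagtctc
Traf2: gcggcagcggGGGTGTTTCCcggcgagcg
The first letters of the matches lay at -89 and -71 from the start in Cxcl1, at -97 and -78 in Cxcl2, at -44 in Il6, and at base 32 of the transcript in Traf2. The first match in Cxcl1 is on the reverse strand.

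Within Zfp521fl/fl, each CXC chemokine had most of its reads in a different library. Cxcl1 had 3, 0 and 0 reads in the Zfp521-CKO-labelled libraries and 0, 0 and 1298 in Zfp521fl/fl, where replicate 3 reached 174 reads per 1000000 (164 to 184). Cxcl2, its neighbour with the same GGGAATTTCC letters, had 332, 0 and 0 reads in the Zfp521-CKO-labelled libraries and 4, 281 and 0 in Zfp521fl/fl. Cxcl10 had 1400, 0 and 2 reads in the Zfp521-CKO-labelled libraries and 914, 0 and 2 in Zfp521fl/fl. The groups overlapped for all 3, and the differences were -3.59 ± 2.91, -1.90 ± 2.94 and -0.33 ± 3.25 log2 units for Cxcl1, Cxcl2 and Cxcl10. Each of these signs turned when 1 library was left out, for Cxcl1 to 0.19 without Zfp521fl/fl replicate 3, for Cxcl2 to 0.73 without Zfp521fl/fl replicate 2 and for Cxcl10 to 2.59 without Zfp521fl/fl replicate 1.

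Ccl3, a chemokine of the inflammatory MIP-1 pair, was at 10.98, 11.40 and 0 in the Zfp521-CKO-labelled libraries and at 8.54, 0 and 2.80 in Zfp521fl/fl. The first pair of Zfp521-CKO-labelled libraries, with 12566 and 8640 reads, lay above every Zfp521fl/fl library and the third below 2 of them. The difference was 3.68 ± 3.50 (limma adjusted p = 0.67). Ccl4, the other member of the pair, was at 9.68, 10.01 and 0 in the Zfp521-CKO-labelled libraries and at 9.03, 3.10 and 10.48 in Zfp521fl/fl, with a difference of -0.97 ± 3.08 that turned to 2.31 without the Zfp521-CKO-labelled replicate 3 and to 0.50 without Zfp521fl/fl replicate 3, to 0.80 with voom and to 1.28 with weights per library. Both were without reads in the Zfp521-CKO-labelled replicate 3, and they parted in Zfp521fl/fl replicate 3, which held 3 reads of Ccl3 and 722 of Ccl4. Ccl2 had 252, 0 and 0 reads in the Zfp521-CKO-labelled libraries and 175, 0 and 0 in Zfp521fl/fl. Ccl5 had 121, 206 and 0 reads in the Zfp521-CKO-labelled libraries and 628, 0 and 0 in Zfp521fl/fl.

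Of the feedback regulators, Tnip1, which encodes the A20-binding protein ABIN-1, was at 6.52, 9.01 and 0 in the Zfp521-CKO-labelled libraries and at 0, 12.11 and 0 in Zfp521fl/fl. Zfp521fl/fl replicate 2 held 2329 reads, or 315 reads per 1000000 (302 to 328), while the other Zfp521fl/fl libraries held none. The difference of 1.14 ± 3.73 (limma adjusted p = 0.92) was 5.18 without that library. Bcl3, an atypical inhibitor protein that acts in the nucleus, also had its highest value in that library, with 857, 371 and 0 reads in the Zfp521-CKO-labelled libraries and 4, 260 and 0 in Zfp521fl/fl. Irak3, which encodes the inactive kinase IRAK-M that restrains Toll-like receptor signalling, was the steadiest of these within the Zfp521-CKO group, at 7.71, 6.98 and 6.94 there and at 6.37, 0 and 9.55 in Zfp521fl/fl. Its difference of 1.90 ± 2.71 was -0.75 without Zfp521fl/fl replicate 2 and -0.35 with quantile normalization.

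The fit depended on the Zfp521-CKO-labelled replicate 3. Without it, limma called 5 of the 31 genes higher, Icam1, Ier3, Irf1, Tlr2 and Tnf, with adjusted p = 0.010, 0.014, 0.035, 0.035 and 0.011, and 0 lower. That is 16.1% of the list, beside 2476 of all genes tested, or 15.1%, called higher, and 0.201% called lower, so the share of the list was near that of the table. The differences of the 5 were then 8.61 ± 0.74 for Icam1, 8.99 ± 1.15 for Ier3, 6.03 ± 1.15 for Irf1, 7.34 ± 1.39 for Tlr2 and 7.93 ± 0.90 for Tnf, where the median gene was at 2.63. For Icam1, Tlr2 and Tnf these are distances from 0 reads, and for Ier3 from 3, 0 and 0 reads in Zfp521fl/fl, and not measured folds. Icam1, Tlr2 and Tnf, and Traf6 named below, had an SD of 0 in Zfp521fl/fl. Their SE and adjusted p therefore take no replicate spread from that group. With a weight for each library, which gave 0.239 to that library, limma called Icam1, Ier3, Tlr2, Tnf and Traf6 higher, again 16.1% of the list, beside 9.93% of all genes tested, with adjusted p = 0.047 for each, and 0 lower, beside 0.17%. No listed gene was called when any other library was left out.

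**Figure D4:**
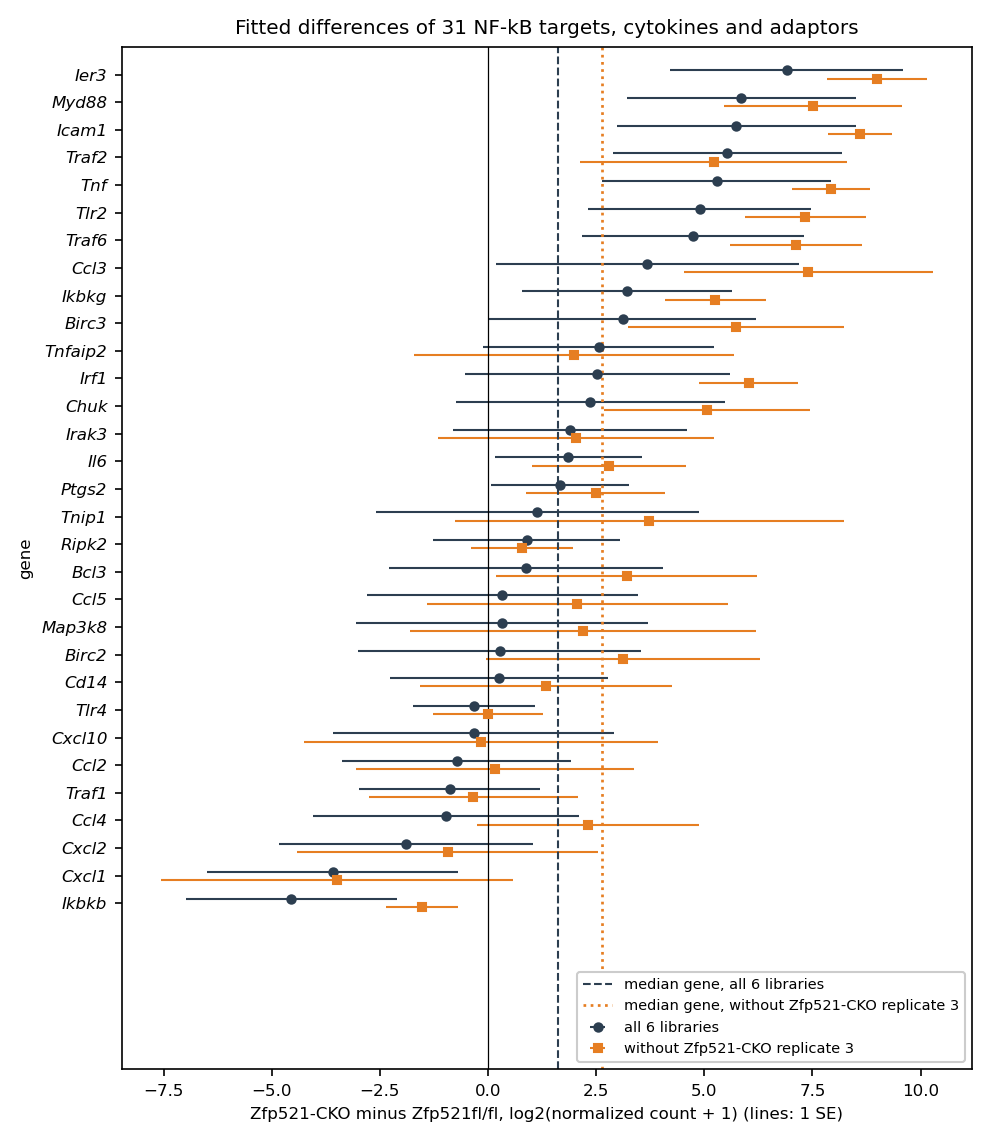
Fitted difference of each of the 31 genes (rows), Zfp521-CKO minus Zfp521fl/fl in log2(normalized count + 1), with 1 SE, from all 6 libraries (dark circles) and without the Zfp521-CKO-labelled replicate 3 (orange squares). Dashed and dotted lines mark the median gene, 1.63 and 2.63, and the values reach from -4.55 (Ikbkb) to 6.90 (Ier3) with all libraries.

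Of the other genes of the pathway, none passed with limma on all 6 libraries (smallest adjusted p = 0.61). Without the Zfp521-CKO-labelled replicate 3, 8 of the 49 tested were called higher (16.3%, beside 15.1% of all genes) and 1 lower (2.04%, beside 0.201%). Of 12 NF-kB subunits and inhibitors, 9 were higher and 3 lower in the Zfp521-CKO-labelled libraries, with a median difference of 1.64. Of 28 further receptors and adaptors 26 were tested, of which 17 were higher and 9 lower, with a median of 1.36. Of 12 receptors of these cytokines and chemokines 11 were tested, of which 6 were higher and 5 lower, with a median of 2.34. Of all genes tested, 73.6% were higher, with a median of 1.63, so these counts show no rise particular to the pathway. The groups did not overlap for 6 of these 49 genes, 5 of them higher in the Zfp521-CKO-labelled libraries (10.2%, beside 7.17% of all genes tested) and 1 lower (2.04%, beside 2.05%). Rela, the p65 subunit, was at 9.68 ± 0.47 in the Zfp521-CKO-labelled libraries and 4.08 ± 0.25 in Zfp521fl/fl (SD, n = 3 each), in a row whose values were not all whole reads. Tnfaip3, the inhibitor A20, was at 7.29 ± 2.60 in the Zfp521-CKO-labelled libraries and 1.49 ± 2.58 in Zfp521fl/fl. Sharpin, of the linear ubiquitin ligase, was at 9.33 ± 1.61 in the Zfp521-CKO-labelled libraries and had no reads in Zfp521fl/fl. Tnfrsf1a, the main TNF receptor, was at 8.87 ± 3.22 in the Zfp521-CKO-labelled libraries and 3.27 ± 2.85 in Zfp521fl/fl. Il1r1, the interleukin-1 receptor, was at 6.67 ± 2.50 in the Zfp521-CKO-labelled libraries and 0.69 ± 1.19 in Zfp521fl/fl. For Il1r1, the Zfp521-CKO-labelled replicate 3 stood above Zfp521fl/fl replicate 1 with the same number of reads, 3 in each. Ccr2, the receptor of the chemokine CCL2 and a monocyte marker, was the one lower gene, at 5.94 ± 0.72 in the Zfp521-CKO-labelled libraries and 10.93 ± 0.85 in Zfp521fl/fl, also in a row not all of whole reads.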

How the data were processed

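Illumina libraries were made from total RNA of sorted HSCs, per the labels' protocols. Bowtie, DESeq2 1.26.0 and mm9 are listed, without a role, per the submitters' processing notes. The deposited table is named FPKM, but its values are log2(reads divided by 1 factor per library + 1), without division by gene length: 99.7% of the 61139 values above 0 were whole reads within 0.001 read. The others lay in 70 genes, none of them listed here. The deposited log2 values were tested with limma 3.58.1 (R 4.3.3, eBayes with a trend) in 6 libraries, with genotype alone, two-sided, with Benjamini-Hochberg adjustment over the 16436 genes with a mean of at least 1 normalized count and a threshold of 0.05. A log2 difference understates the change of low genes.

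Members, gene lists and the rule for named genes were chosen with earlier results of these data known. Named with a value in every library were members whose groups do not overlap or with reads in all 6 libraries, the 6 of smallest p and the highest of each role. The other members are given by reads, and Irf1, Ccl4 and Irak3 were given log2 values and the CXC chemokines differences after their values were seen. Rates have 95% exact Poisson intervals, also where there were 0 reads. Expected detection at 3137596 reads was computed per gene from its reads. Alternatives were other pseudocounts, filters, scalings, weights and left-out libraries. No coordinates of the table's build are given. Python 3.11.15 was used besides R.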

Additional observations from a re-analysis of the deposited data

How the results depend on the processing

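None of the 31 genes passed with limma in 13 of the 15 alternatives, and 5 passed without Zfp521-CKO-labelled replicate 3 or with weights per library. Over all genes, the count was 0 with 6 libraries, 2509 without that replicate, 1660 with weights, 22 with quantile normalization and 5 with voom on recovered reads, and leaving out single libraries gave 0 to 2509 genes and 0 to 5 listed genes. The median of the list, 1.66, became -0.35 with quantile normalization and ran from 0.71 to 2.79 with a library left out. The Zfp521 difference of 3.51 ran from 1.75 to 5.72. Replicate numbers did not pair the libraries (correlations of same-numbered deviations over genes 0.031, -0.041 and 0.006), not every library correlated best with its own number, and with the number as a block 0 genes passed, 0 of them listed. Of 462 values of single genes, 402 kept direction and side, 10 passed in addition and 50 changed sign, in 19 genes. With quantile normalization these were Ptgs2 at -0.13, Birc2 at -1.01, Il6 at -0.039, Ccl5 at -2.28, Bcl3 at -2.04, Tnip1 at -0.68, Irak3 at -0.35, Chuk at -0.29, Cd14 at -1.17, Ripk2 at -2.10 and Map3k8 at -1.55. With voom they were Ccl4 at 0.80 and Cd14 at -0.23, and with weights Ccl4 at 1.28, Tlr4 at 0.48 and Map3k8 at -0.068. With single libraries left out, ranges that crossed 0 were -0.73 to 4.34 for Tnfaip2, -2.45 to 3.12 for Birc2, -1.99 to 1.10 for Traf1, -5.48 to 0.19 for Cxcl1, -3.82 to 0.73 for Cxcl2, -2.37 to 2.59 for Cxcl10, -2.52 to 1.79 for Ccl2, -3.19 to 2.31 for Ccl4, -1.23 to 3.46 for Ccl5, -1.01 to 3.46 for Bcl3, -0.88 to 5.18 for Tnip1, -0.75 to 4.02 for Irak3, -0.96 to 0.64 for Tlr4, -1.91 to 2.17 for Cd14 and -1.72 to 3.76 for Map3k8. The cause of these changes was not tested beyond the libraries left out. Il6 and Ptgs2 have no value without Zfp521-CKO-labelled replicate 1, which held their only reads. Depth limits genes with few reads, since 3 of them give a log2 of 3.96 at the shallowest depth and 0.57 at the deepest.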
